A study of Mus musculus with 2 samples.

Results

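Complex I, or NADH:ubiquinone oxidoreductase, was examined through the nuclear genes whose symbols begin with Nduf, in inguinal white adipose tissue of mice that did or did not carry functional Ucp1 alleles. Members were taken by symbol from probe sets annotated to exactly 1 gene, and for a gene with several probe sets the brightest on average was used. This gave 43 genes of 19938 measured and named here. They comprised 34 subunits of the enzyme, 7 assembly factors (Ndufaf genes), and Ndufa4 with its paralog Ndufa4l2. Ndufb1 and Ndufaf8 had no probe set under those symbols and Ndufb4 had only probe sets shared with a near copy, so these genes are not among the members.

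The tissue is the subcutaneous fat depot of the groin. One array was hybridised with RNA of Ucp1-/-;ApoE-/- mice (DKO) and the other with RNA of ApoE-/- mice (ApoE-KO), so by their labels both groups lacked apolipoprotein E and the contrast is the additional loss of uncoupling protein 1. All mice were male littermates on C57BL/6J, kept at 23 °C on standard chow and then given a high-fat diet for 9 weeks from 9 weeks of age, and the labels name no tissue restriction of either knockout. Each array carried a pool of 3 mice, so there was 1 array per genotype, the spread between mice was not measured, no test was possible, and no difference below has a replicate check.

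Complex I takes electrons from NADH, passes them through a flavin and a chain of iron-sulphur clusters to ubiquinone, and pumps protons across the inner mitochondrial membrane. Its L-shaped body has a peripheral arm in the matrix, with an N module that oxidises NADH and a Q module that reduces ubiquinone, and a membrane arm with a proximal and a distal part that hold the proton pumps. A few conserved core subunits do the catalysis, many accessory subunits surround them, and assembly factors join the modules and then leave. In brown and beige adipocytes the respiratory chain is abundant, because heat production there rests on fuel oxidation.

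Expression was read as linear probe-set intensity, and a difference is the log2 value under the DKO label less that under the ApoE-KO label. Over 35557 probe sets the median intensity was 152.1 for DKO and 157.7 for ApoE-KO. Ucp1, read as a check of the labels, had intensities of 2230 for DKO and 218.9 for ApoE-KO, a difference of 3.35. It was therefore brighter in the pool described as lacking the protein, where the probe set's place relative to the deleted part is unknown, so arrays are named by their labels and every direction depends on them. Apoe, disrupted by the labels in both groups, had intensities of 502 for DKO and 589.3 for ApoE-KO (-0.23), and where its probe set lies relative to the disruption is likewise unknown. An expression floor was placed at an intensity of 196.9, the middle of the probe-set averages among those with 1 symbol. It is a rule for counting, not a limit of detection.

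Complex I genes were higher in the array labelled DKO almost throughout. Of the 43 members, 42 had a positive difference, as did 9249 of all 19938 genes. The median of the members was 0.96, or 1.94-fold, where the median of all 19938 genes was -0.01. The members lay close together, with quartiles of 0.81 and 1.11. Of the 38 members above the floor, 20 were at least 2-fold higher, which is 52.6%, against 2.79% of all 9891 genes above the floor. At least 1.5-fold higher were 35 of 38 members (92.1%), against 7.57% of genes. At least 2-fold lower were 0 members, and 0.698% of genes. The 20 members made up 7.25% of the 276 genes that were at least 2-fold higher. Of all 9891 genes above the floor, 38 were members. Among the 500 highest differences of these 9891 genes were 33 of the 38 members.

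**Figure D1:**
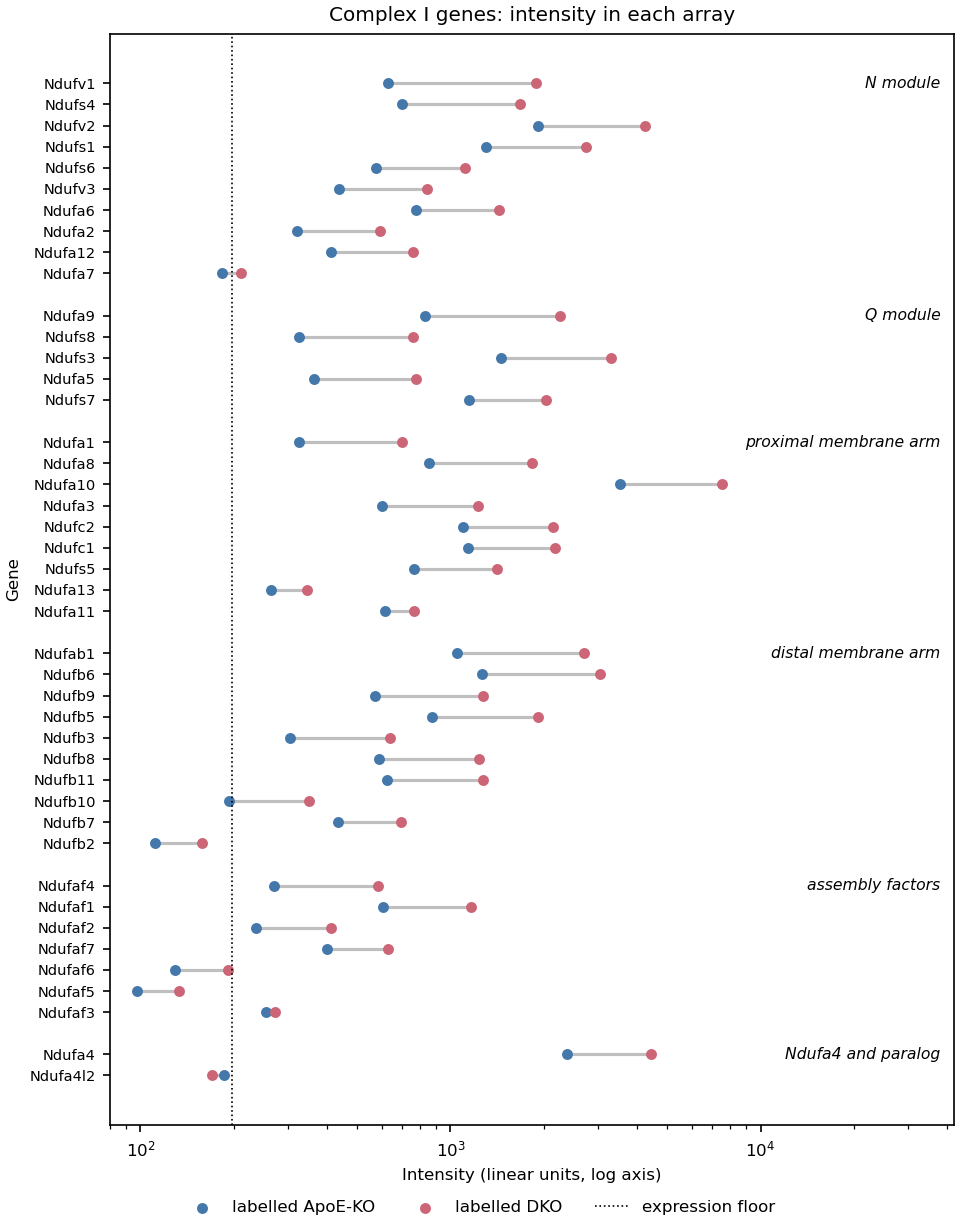
Intensity of each complex I gene in the array labelled ApoE-KO (blue) and the array labelled DKO (red), on a log axis in linear intensity units, grouped by position in the enzyme and ordered by difference, 1 array per point. The red point lies to the right for 42 of 43 genes, Ndufa4l2 being the exception, and the dotted line marks the floor of 196.9; the length of a grey bar is the difference, while positions of different genes are not comparable because each probe set has its own brightness.

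The nuclear core subunits, which carry the flavin and the iron-sulphur clusters, had a median difference of 1.16 over the 6 measured. Of these 6, 5 were at least 2-fold higher. Core subunits encoded by the mitochondrial genome are not members. Ndufv1, the subunit that binds NADH and the flavin mononucleotide that first accepts its electrons, had intensities of 1881 for DKO and 631 for ApoE-KO. Its difference of 1.58, or 2.98-fold, was the largest of the 43 members and ranked 53 among all genes above the floor. Ndufv2, its iron-sulphur partner, went from 1916 to 4236 (1.14), each pair of values running from the ApoE-KO array to the DKO array. Ndufs1, the large subunit that holds several clusters of the chain, went from 1304 to 2727 (1.06). These 3 genes encode the NADH-oxidising end of the enzyme, and each was past 2-fold.

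The remaining measured nuclear core subunits belong to the Q module. Ndufs3, a scaffold of this module, went from 1456 to 3303 (1.18). Ndufs8, which holds a pair of iron-sulphur clusters, went from 324.2 to 758.6 (1.23). Ndufs7, which holds the last cluster before ubiquinone, went from 1150 to 2031 (0.82, or 1.77-fold). Ndufs7 was thus the 1 measured nuclear core subunit below 2-fold, and like the others it was higher in the array labelled DKO.

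Accessory subunits of the peripheral arm lay between 0.88 and 1.44, apart from Ndufa7 (0.20). Ndufa9, a dinucleotide-binding protein where the peripheral arm meets the membrane, went from 827.4 to 2247 (1.44), the next largest difference after Ndufv1. Ndufs4, which stabilises the N module and whose loss in mice gives a model of Leigh syndrome, went from 698.8 to 1680 (1.27). Ndufa5 of the Q module went from 363.6 to 775.9 (1.09). Each of these 3 was more than 2-fold higher. The zinc-binding subunit Ndufs6 (0.96), Ndufv3 (0.94), Ndufa6, which docks an acyl carrier protein on the arm (0.89), the thioredoxin-like Ndufa2 (0.89) and Ndufa12 (0.88) were between 1.84-fold and 1.94-fold higher. Ndufa7, at 182.9 and 210.4, differed by 0.20 and lay below the floor on average. As groups, the N module had a median of 0.95 over 10 genes, 4 of them past 2-fold, and the Q module 1.18 over 5 genes, 4 of them past 2-fold. With 1 array per genotype these medians cannot be tested against each other.

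In the membrane arm, the accessory subunits around the proton pumps were higher by similar amounts. The distal part had a median of 1.07 over 10 genes, of which 7 were at least 2-fold higher. Ndufab1, the mitochondrial acyl carrier protein that also serves fatty acid synthesis inside mitochondria, went from 1046 to 2692 (1.36). Ndufb6 went from 1266 to 3026 (1.26) and was followed by Ndufb9 (1.16), Ndufb5 (1.14), Ndufb3 (1.07), Ndufb8 (1.07) and Ndufb11 (1.03). Ndufb10 (0.85) and Ndufb7 (0.67), a pair of disulphide-bonded subunits facing the intermembrane space, were below 2-fold. Ndufb2 had intensities of 111 and 158.5, both under the floor, and a difference of 0.51.

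The proximal part had a median of 0.96 over 9 genes, of which 4 were at least 2-fold higher. Ndufa10, which has a fold like that of nucleoside kinases, went from 3524 to 7495 (1.09), and Ndufa1 (1.11), Ndufa8 (1.10) and Ndufa3 (1.03) were also past 2-fold. Ndufc2 (0.96), Ndufc1 (0.94) and Ndufs5 (0.89) came just short. The lowest in the proximal part were 2 genes under 1.5-fold. Ndufa13, also known as GRIM-19, had intensities of 264.5 and 343.5 (0.38), and Ndufa11, a membrane subunit related to the mitochondrial import translocases, 617.1 and 760.9 (0.30). Both genes were above the floor, and Ndufa13 lay close to it. Ndufa11 had another probe set, which went from 455.5 to 723 (0.67).

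Around the 2-fold threshold the members formed a continuum. Just inside it lay Ndufb11 and Ndufa3 (both 1.03), and just outside it Ndufc2 and Ndufs6 (both 0.96) and the assembly factor Ndufaf1 (0.95). The count of 20 therefore moves with small shifts in scale, from 15 with an offset of 50 added to each intensity to 23 with both arrays centred on their medians, while the median moved only between 0.91 and 1.01 under the same 2 settings.

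Assembly factors were higher by less. All 7 had positive differences, their median was 0.66, and 1 of the 5 above the floor was past 2-fold. That was Ndufaf4, which with Ndufaf3 attends the Q module during assembly and went from 270.3 to 582.9 (1.11). Ndufaf3 itself had intensities of 253.7 and 271.1, a difference of 0.10, the smallest above the floor. The 2 partners thus differed by unlike amounts in the same pair of arrays. Ndufaf1, a chaperone of the membrane arm, went from 603.8 to 1168 (0.95), Ndufaf2, a paralog of Ndufa12 that acts late in assembly, from 236.2 to 410.7 (0.80), and the methyltransferase Ndufaf7 from 398.8 to 630.8 (0.66). Ndufaf6 (0.56) and Ndufaf5 (0.45), which modifies Ndufs7, lay below the floor in both arrays. Assembly genes without the Nduf name showed a like range. Their median was 0.44 over 10 measured of 11 listed, all 10 were positive, and Foxred1 (1.09) was the 1 past 2-fold, followed by Tmem70 (0.97), while Dmac1 (0.13) and Nubpl (0.21) were lowest.

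Ndufa4 and Ndufa4l2 share the family name but stand apart from the enzyme. Ndufa4, now assigned to cytochrome c oxidase, went from 2379 to 4436 (0.90). Ndufa4l2, a paralog known for its induction in hypoxia, had intensities of 185.7 and 169.6 (-0.13) and was the 1 member with a negative difference. Both of its values lay below the floor. Without this pair the median of the remaining members was 0.96, as with it.

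Members with low intensity had smaller differences. The 5 members below the floor (Ndufa7, Ndufb2, Ndufaf5, Ndufaf6 and Ndufa4l2) lay between -0.13 and 0.56, and the 38 above it between 0.10 and 1.58 with a median of 1.03. Across the 43 members, which share the same pair of arrays, the mean log2 intensity and the difference had a Spearman correlation of 0.61 and a Pearson correlation of 0.65. The Spearman value was 0.46 over the 38 members above the floor and 0.07 over all 9891 genes above it. These are descriptions across genes, which are not independent replicates. The part that background signal plays in the dim members was not tested.

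**Figure D2:**
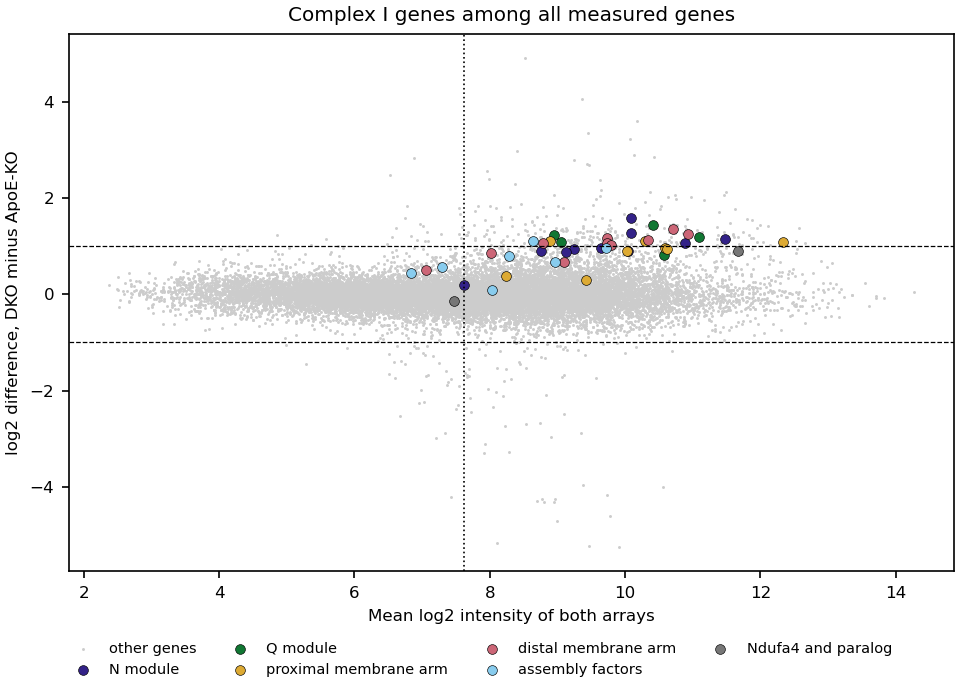
Difference between the arrays (log2, DKO minus ApoE-KO) against the mean log2 intensity of both arrays, with 1 point per gene: grey for the other genes, coloured by position in the enzyme for the 43 complex I genes. The dotted line is the floor and the dashed lines are 2-fold; members above the floor gather around a difference of 1.03, and the 5 below it lie under 0.6.

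Several members were read by more than 1 probe set, and these gave the same direction. Ndufs3 differed by 1.18 and, in a probe set that went from 1212 to 2757, by 1.19. Ndufab1 differed by 1.36 and, from 849.4 to 2128, by 1.33. Ndufc1 went from 1139 to 2178 (0.94) and, in the other, from 740.2 to 1384 (0.90). Ndufb11 went from 623.3 to 1271 (1.03) and, in the other, from 376.2 to 711.7 (0.92), so that its place past 2-fold depends on the probe set. Ndufa11, at 0.30 and 0.67, was the 1 gene of the 5 in which the readings were over 0.2 apart. Probe sets of one gene share accessions in the annotation, and the genomic copy that each reads is unknown here. Processed copies of Ndufa11, Ndufa12, Ndufab1 and Ndufs6 are listed in RefSeq, and signals of near-identical copies cannot be told apart in these values.

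The members lay on 15 chromosomes by RefSeq. The closest pair was Ndufs8 and Ndufv1 on chromosome 19, with 8 protein-coding genes between them. Of those genes 7 were measured, and their differences lay between -0.62 and 0.58, with a median of 0.31. Both members, at 1.23 and 1.58, were above all 7.

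Transcripts of listed cofactor supply genes were higher as well, while supply itself was not measured. Of 17 listed genes of iron-sulphur cluster and flavin supply, 13 were measured, all 13 had positive differences, the median was 0.68, and 3 of the 12 above the floor were past 2-fold. Iscu, the scaffold on which clusters are built, went from 811.2 to 2104 (1.38), and Bola3, which helps to hand clusters on, from 1084 to 2485 (1.20). The lowest were the cochaperone Hscb (0.15) and riboflavin kinase, Rfk (0.32).

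The other respiratory complexes give the scale for these values. Complex II, succinate dehydrogenase, had a median of 1.18 over 4 genes (Sdhb 1.62 and Sdhd 1.28 highest, Sdhc 0.97 and Sdha 1.09 lowest). Complex III had 1.13 over 9 genes (Uqcrfs1 1.59 and Uqcrq 1.43 highest, Uqcr11 0.76 and Uqcrh 0.83 lowest). Complex IV, in its widely expressed isoforms, had 1.02 over 10 genes (Cox6b1 1.38 and Cox5a 1.34 highest, Cox7a2l 0.15 and Cox8a 0.54 lowest). Complex V, the ATP synthase, had 0.60 over the 14 genes measured under the symbols listed (Atp5o 1.15 and Atp5j2 1.12 highest, Atp5g1 -0.50 and Atp5c1 0.28 lowest), with 3 of them past 2-fold. With Atp5md, Atp5mpl and Atp5pb, ATP synthase genes added after their values were seen, it had 0.66 over 17 genes, with 6 past 2-fold. The lists are not matched in kind to the members, which include assembly factors. The complex IV list counts Cox7a2l and leaves out Ndufa4 (0.90). The 34 complex I subunits taken alone, a choice made after the values were seen, had a median of 1.05, against 0.96 for all 43 members. The value for subunits lay above that of complex IV and the value for all members below it, so the order of the 2 complexes depends on which genes are counted, and no ordering of these complexes was tested.

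Regulators known to act on respiratory genes were mixed. Of 12 listed, all above the floor, 8 had positive differences and 4 were past 2-fold. The fatty acid receptor Ppara (2.06) and the coactivator Ppargc1a (1.44) were highest, and the corepressor Nrip1 (-0.64) and the transcription factor Nrf1 (-0.29) lowest. Yy1, whose protein binds respiratory gene promoters, had intensities of 1221 and 1190 (-0.04).

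Markers of other cells also differed between the arrays. Brown and beige adipocyte markers were higher in 8 of 8 cases, with a summed intensity of 17061 for DKO and 2888 for ApoE-KO. The count and the sums include Ucp1 (2230 for DKO and 218.9 for ApoE-KO), the gene that by the labels is disrupted in DKO. Elovl3 (4.90) and Ucp1 (3.35) were highest, and Prdm16 (0.13) and Ppargc1a (1.44) lowest. Skeletal muscle markers were lower in 12 of 12, with sums of 1861 and 28912 in the same order. Of these, 9 were at least 2-fold lower and above the floor, led by Atp2a1 (-5.25) and Myh4 (-5.22), whereas the slow-fibre genes Tnni1 (105.4 and 106.6, -0.02) and Myh7 (97.2 and 113.4, -0.22) lay below the floor in both arrays. B cell (4 of 4 lower, sums of 2008 and 4122), macrophage (5 of 5 lower, 3562 and 5252) and fibroblast markers (5 of 5 lower, 7220 and 11368) were also lower in the array labelled DKO. General adipocyte markers, which define the labelled tissue, were present in both arrays, with sums of 40209 and 39316 and differences between -0.12 and 0.12. The B cell genes ran from Ms4a1 (-1.16) and Cr2 (-1.11) to Cd79b (-0.79), the macrophage genes from Cd163 (-0.72) to Adgre1 (-0.32), and the fibroblast genes from Pi16 (-1.13) to Col1a1 (-0.49). No marker was at 0 in either array, but neither was any probe set, the lowest intensities being 3.68 for DKO and 3.55 for ApoE-KO. The absence of zeros therefore does not show that a marker was expressed. The part of these cells in the complex I values was not tested, and in bulk tissue a change in the number of cells of a type and a change in RNA per cell cannot be told apart.

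**Figure D3:**
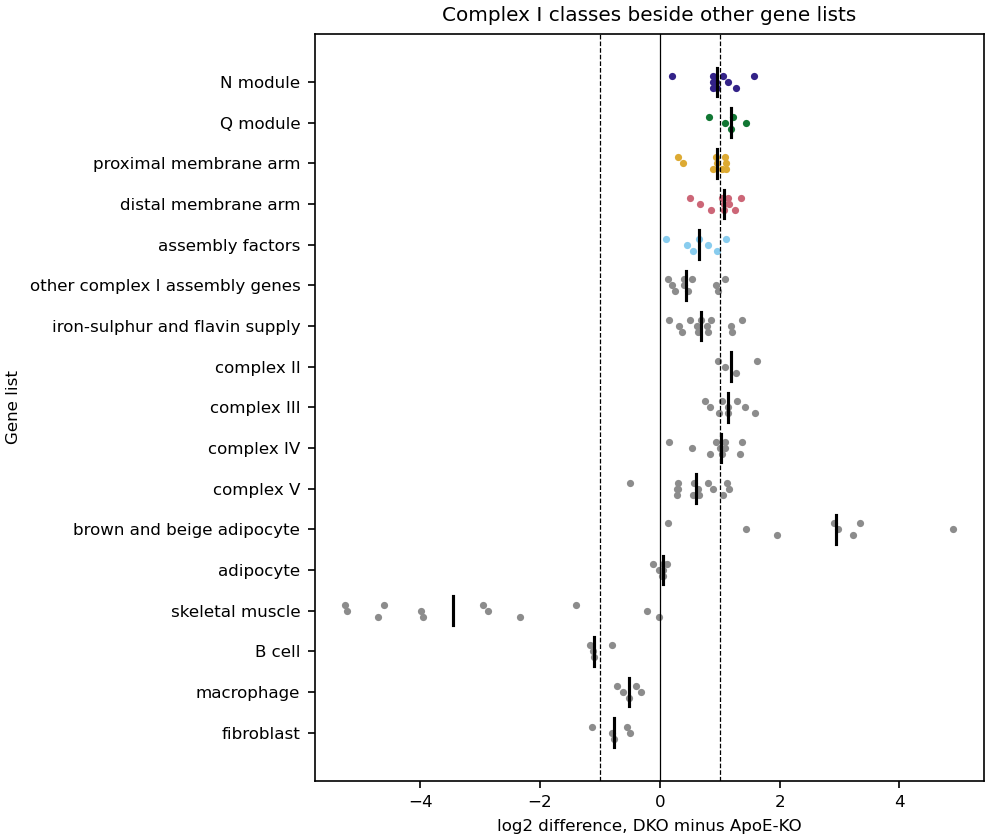
Differences (log2, DKO minus ApoE-KO) of the genes of each list, 1 point per gene, with black bars at the list medians; coloured points are complex I genes by position in the enzyme, grey points are other lists, and dashed lines are 2-fold. Medians of the 4 structural parts of complex I lie between 0.95 and 1.18, those of brown and beige markers and muscle markers at 2.93 and -3.46.

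Promoters of the members were searched because nearly all members differed in the same direction. RefSeq sequences (GRCm38.p6) from 250 bases before to 50 bases after the annotated start were matched by symbol for 38 of the 43 members. Letters typical of factors that bind respiratory gene promoters were sought on both strands: AAGATGGC for YY1, GCGCATGCG for NRF1, CCGGAAGT for GABPA, and TCAAGGTCA, or more loosely TNAAGGTCA, for the estrogen-related receptors. A match is a description of the letters and not evidence of binding. The looser receptor motif contains the stricter one, the NRF1 letters overlap their own reverse complement, and 0 members held more than 1 of the other motifs.

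The YY1 letters were found in 7 of 38 members (18.4%), against 3.19% of 27025 genes with a promoter sequence and 5.39% of the 7934 of these above the floor. All 7 matches lay 23 to 39 bases after the start and in the gene's own direction, and 0 lay in the 250 bases before it. Within the 50 bases after the start and on that strand, a window chosen after the matches had been seen, the letters were present in 1.04% of all genes and 2.71% of those above the floor. The letters include ATG, and whether they coincide with a translation start was not examined. The windows are shown because they carry this shared feature, 5′ to 3′ in the gene's direction, with the YY1 letters in capitals.
Ndufa9 (chr6:126849097-126849126, minus strand): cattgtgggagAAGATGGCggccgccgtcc
Ndufs4 (chr13:114388045-114388070, minus strand): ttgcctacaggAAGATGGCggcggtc
Ndufb8 (chr19:44555393-44555415, minus strand): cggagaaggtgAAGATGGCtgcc
Ndufa3 (chr7:3617384-3617413, plus strand): ccgccaagaacAAGATGGCcgggagtaagt
Ndufs6 (chr13:73328433-73328460, minus strand): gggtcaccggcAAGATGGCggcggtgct
Ndufc1 (chr3:51408915-51408944, minus strand): gcctgcggaacAAGATGGCgccgtccgtag
Ndufs7 (chr10:80249462-80249491, plus strand): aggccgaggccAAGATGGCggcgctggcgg

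These 7 genes had a median difference of 1.03, and the 31 without the letters 0.95. They lay between 0.82 (Ndufs7) and 1.44 (Ndufa9), where all 43 members lay between -0.13 and 1.58.

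The NRF1 letters were found in 4 of 38 members (10.5%), against 1.95% of all genes and 4.20% of those above the floor. In 3 of them the match lay before the start, at -9 in Ndufa8, -60 in Ndufa11 and -113 in Ndufaf4, counted to the first base of the match, and in Ndufaf5 it began 17 bases after it. The 3 upstream windows are shown with the NRF1 letters in capitals (in Ndufa8 the match is on the opposite strand, so the capitals are the reverse complement of the letters given above), since the genes with this match include both large and small differences.
Ndufa8 (chr2:36049339-36049407, minus strand): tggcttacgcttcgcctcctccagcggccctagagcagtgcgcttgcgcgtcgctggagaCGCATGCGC
Ndufaf4 (chr4:24897910-24898008, plus strand): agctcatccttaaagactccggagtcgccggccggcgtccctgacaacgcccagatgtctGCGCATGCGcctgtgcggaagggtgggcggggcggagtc
Ndufa11 (chr17:56717642-56717740, plus strand): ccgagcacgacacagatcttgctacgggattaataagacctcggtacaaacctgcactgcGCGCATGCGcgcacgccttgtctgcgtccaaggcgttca

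Ndufa8 (1.10) and Ndufaf4 (1.11) were past 2-fold, whereas Ndufa11 (0.30) and Ndufaf5 (0.45) were among the lowest members. The GABPA letters were found in 1 of 38 members, Ndufs3 (2.63%, against 4.31% of all genes and 9.23% of those above the floor). The receptor letters were found in 0 of 38 in either form, where 0.466% and 1.43% of all genes held them, which says only that these letters are not in these windows. The promoter of Ndufv1, the gene with the largest difference, held none of the motifs searched. The 150 bases before its start (chr19:4012756-4012905, minus strand) are shown in lower case for that contrast.
Ndufv1: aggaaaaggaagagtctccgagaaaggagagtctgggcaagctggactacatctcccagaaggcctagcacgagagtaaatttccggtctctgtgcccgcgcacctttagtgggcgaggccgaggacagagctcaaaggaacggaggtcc

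Over the 250 bases before the start, the median GC content of the 38 members was 57.7%, with a range of 42.0% to 68.0%, against 60.4% for genes above the floor and 52.4% for all genes with a promoter.

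**Figure D4:**
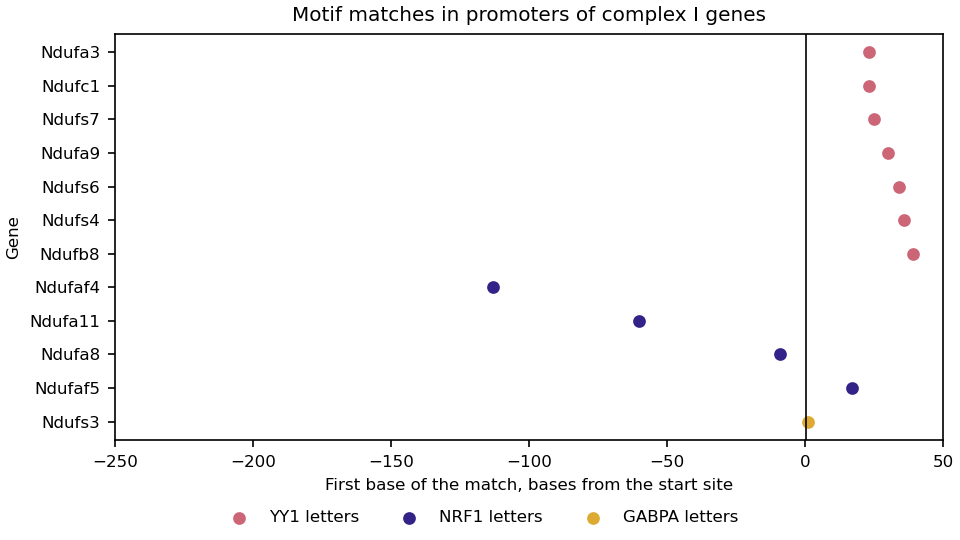
Position of the first base of each motif match in bases from the annotated start site (vertical line), for the 12 complex I genes with a match among 38 searched; colours give the motif. The 7 YY1 matches lie at 23 to 39 bases after the start, while the NRF1 matches run from -113 to 17.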

How the data were processed

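RNA of inguinal white adipose tissue was measured on 2 Affymetrix arrays, 1 per genotype, each with a pool of 3 mice. Trizol was used to extract the RNA and fragmented DNA carried the biotin label, per the labels' protocols. The authors deposited 1 linear intensity per probe set and array. How they corrected background, summarised probes and scaled arrays is not stated in any source used here. The number of arrays limits the precision. There are no detection calls.

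Log2 was taken with no pseudocount (Python 3.11.15, pandas 2.3.3, numpy 2.4.6). Of 35557 probe sets, 21789 had 1 symbol in the platform annotation, 1621 had several and 12147 were unnamed here. Genes were counted when above the floor and at least 2-fold apart. Every member was eligible to be named. Both intensities were given for core subunits, the 5 largest and smallest differences and genes with several probe sets. The rule named the 2 highest and 2 lowest genes of each comparison list, and for some cell marker lists fewer are printed. The members and lists were chosen with earlier results of these data known. The calculation was tested on simulated data in which the changes put in were larger than that of any member. That test does not bear on calls near 2-fold. Alternatives were quantile, median and loess scaling (statsmodels 0.14.6, span 0.4), an offset of 50, the mean of probe sets, other floors and thresholds, and promoter windows.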

Additional observations from a re-analysis of the deposited data

Results flagged for a closer look

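Signal from complex I genes was also present in probe sets that the comparison did not use, and it was higher in the array labelled DKO. Both probe sets shared by Ndufb4 and its near copy Ndufb4b, a distal membrane arm subunit, were 2-fold higher: probe set 10439398 went from 458.8 to 928.6 (log2 difference 1.02) and probe set 10462193 from 587.5 to 1180 (1.01). A probe set shared by Ndufs5 and its pseudogene went from 373.2 to 736.6 (0.98), beside 0.89 for the probe set of Ndufs5 alone. The mitochondrial genome encodes further core subunits, of which ND3 could be read: probe set 10598055 went from 4795 to 6858 (0.52) and probe set 10598049 from 1892 to 2908 (0.62). Both ND3 values were smaller than the 0.96 median of the nuclear members, a difference that was not tested.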

How the results depend on the processing

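No paired analysis was possible because each genotype had 1 array. All 258 values of single members under 6 alternatives kept a direction that was not opposite to the one reported, and 15 moved by more than 0.1, most of them dim genes under the offset or with the floor as the lowest value. The median of all members lay between 0.91 and 1.01 under other scalings, the offset, the mean of probe sets and the floor as the lowest value, their mean was 0.90, the median was 1.03 for members above the floor and 1.05 for subunits alone (a choice made after seeing the data), and the median of all genes shifted by at most 0.05. The 20 members at least 2-fold higher became 35 at 1.5-fold and 0 at 3-fold, and 15 to 23 under other scalings and floors. With members above the floor only, the assembly factor median became 0.80 and that of Ndufa4 and its paralog 0.90, since fewer genes entered. In the 250 bases before the start alone, the share of members with the YY1 letters was 0%, with the GABPA letters 0% and with the NRF1 letters 7.89%. The YY1 and GABPA matches, and the NRF1 match of Ndufaf5, began after the start and so lay outside those bases. Signal over background could not be judged for the 5 members below the floor of 196.9.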
